A study of Mus musculus with 9 samples.

Results

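The actin isoforms are described here across 9 heart libraries: the 5 genes Acta1, Actc1, Acta2, Actb and Actg1, taken by symbol from the 15779 genes in the deposited tables. All 5 were listed in every table. The hearts came from adult C57BL/6J mice in 3 groups of 3 libraries. One group was wildtype and received saline. Another was homozygous for Mybpc3R946X, a premature stop codon in the gene for cardiac myosin-binding protein C, and received saline. The last carried the same homozygous mutation and received high-dose-exABE8e. By its name this is an adenine base editor, a deaminase joined to a Cas9 variant that turns A into G at a guided site, and the series' design describes delivery by AAV9 for expression in cardiomyocytes. The labels gave no dose, sex, exact age or time of treatment, and they did not say whether each library came from its own animal, so p-values measure the spread between these samples. Treated mutants differed from saline mutants in both virus and editor, and these cannot be told apart.

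Actin monomers assemble into filaments, and mammals make them from a small family of closely related genes. Acta1 encodes skeletal muscle alpha-actin and Actc1 cardiac alpha-actin, which both build the thin filaments of the sarcomere. In the adult rodent heart the cardiac form predominates, and Acta1 is expressed in the fetal heart and known to return in hypertrophy. Acta2 encodes smooth muscle alpha-actin, found in the vessel wall and in activated fibroblasts. Actb and Actg1 encode the beta and gamma actins of the cytoskeleton in nearly all cells. Serum response factor (SRF), with its cofactors, acts on a promoter motif called the CArG box that is found in many actin genes.

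The 250 bases before the start site of the 3 muscle actin genes are shown because the motif is known from muscle actin genes, whose levels moved in different directions in these hearts. They are from RefSeq's promoter table (GRCm38.p6), read 5′ to 3′ on the minus strand of the genome. Capitals mark matches on either strand to the CArG box: CC, then 6 bases of which at least 5 are A or T, then GG. No other motif was searched. Start sites are the table's own, and those of Actc1 and Acta2 lie inside the gene spans given with the values. The Acta1 start site (123894775) lies outside its gene span, which ends at 123894751.

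Acta1, chr8:123894776-123895025: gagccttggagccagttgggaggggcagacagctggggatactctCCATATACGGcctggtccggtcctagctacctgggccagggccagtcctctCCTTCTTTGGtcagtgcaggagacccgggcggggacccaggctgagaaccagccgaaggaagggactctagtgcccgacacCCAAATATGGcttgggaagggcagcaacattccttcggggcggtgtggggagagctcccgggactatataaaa
Actc1, chr2:114052876-114053125: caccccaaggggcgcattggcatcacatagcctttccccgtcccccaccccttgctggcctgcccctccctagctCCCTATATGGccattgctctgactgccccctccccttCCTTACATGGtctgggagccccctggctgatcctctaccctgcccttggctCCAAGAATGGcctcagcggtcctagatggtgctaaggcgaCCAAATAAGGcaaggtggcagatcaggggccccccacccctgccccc
Acta2, chr19:34255374-34255623: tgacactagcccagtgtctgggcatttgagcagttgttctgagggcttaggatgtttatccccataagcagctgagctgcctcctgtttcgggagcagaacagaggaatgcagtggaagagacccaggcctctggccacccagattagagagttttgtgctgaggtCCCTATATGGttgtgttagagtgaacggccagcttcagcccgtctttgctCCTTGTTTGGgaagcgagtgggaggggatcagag

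Acta1 and Actc1 each held 1 match in which all 6 middle bases were A or T, CCAAATATGG beginning 73 bases before the Acta1 start and CCAAATAAGG beginning 47 bases before the Actc1 start. The Acta2 window held none of these, and its 2 marked matches begin 84 and 34 bases before the start. Actg1 held CCATATATGG, beginning 90 bases before its start, and no entry for Actb was matched. Of 32851 promoter windows of this length, 1.47% held a match with all 6 middle bases A or T, and 8.59% held one with at least 5. A match describes the letters and not a site in use.

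The deposited value of a gene in a library is a whole number, and each library summed to between 999152 and 999382, so values are read as a share of a fixed library total, rounded by the authors. Sequencing depth is unknown, and precision rests on the 3 libraries of a group. Mybpc3, the mutated gene, stood at 1510, 1795 and 2039 in wildtype, 133, 142 and 186 in saline mutant and 1024, 1374 and 1332 in treated mutant hearts, listed here and below from replicate 1 to 3. All 16 cardiomyocyte markers, such as Myh6 and Tnnt2, were listed, and their summed value was 66939 to 76657 in wildtype, 58543 to 72103 in saline mutant and 66771 to 71690 in treated hearts. Mitochondrial transcripts took 17.0% to 24.1% of a library. Xist, a transcript of female cells, was above 0 in 1 library of each group (119 in wildtype replicate 1, 351 in saline mutant replicate 3 and 39 in treated replicate 1). Treated replicate 1 also held the Y-linked Ddx3y at 38, so both sex-linked signals were present in that library. Isoform results and list counts stated below are repeated without these 3 libraries where that changes a call or moves them over 1.5 times.

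Acta1 was the isoform that moved most. It lies at chr8:123891769-123894751 on the minus strand (GRCm38; ENSMUSG00000031972.5), and its main transcript has 7 exons and 1446 bases. Its values were 266, 437 and 597 in wildtype, 4810, 4989 and 4824 in saline mutant and 971, 1087 and 841 in treated mutant hearts. The 3 groups did not overlap: every saline mutant heart lay above every treated heart, and every treated heart above every wildtype heart. The group means were 433 ± 166, 4874 ± 99.6 and 966 ± 123 (SD, n = 3 each). The wildtype libraries varied most for their level, with a coefficient of variation of 38.2%, against 2.04% in saline mutants and 12.7% in treated mutants.

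In saline mutants Acta1 rose 11.2-fold over wildtype by the ratio of means. On the log2(value + 1) scale the rise was 3.56 (SE 0.249, 95% confidence interval 2.997 to 4.13), with an adjusted p of 0.000178 by limma with Benjamini-Hochberg adjustment over 13632 genes. In treated mutants it fell 5.04-fold from the saline mutant mean, a change of -2.34 (SE 0.127, interval -2.63 to -2.05; limma adjusted p 0.000254). Besides Acta1, the only gene that passed the test between treated and saline mutants was Mybpc3, which rose; the alternative fits passed 2 to 32 genes, Acta1 in each. Leaving out the 3 libraries with Xist gave 3.26 (limma adjusted p 0.000682) and -2.36 (limma adjusted p 0.0153) for these comparisons.

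In these samples the treated hearts all lay above the wildtype hearts in Acta1. Their mean was 223% of the wildtype mean, against 1125% in saline mutants. The log2 difference from wildtype was 1.22 (SE 0.271, interval 0.59 to 1.86), with a limma adjusted p of 0.112, so the difference did not pass the test although the groups did not overlap. With all 9 libraries in 1 fit it passed (limma adjusted p 0.0316), and without wildtype replicate 1, the lowest library, the difference was 0.91. Without the 3 libraries with Xist it was 0.90 (limma adjusted p 0.236). On a scale where the saline mutant mean is 0% and the wildtype mean 100%, the treated hearts stood at 87.9%, 85.3% and 90.8% by value. On the log2 scale the same hearts stood at 65.3%, 60.7% and 71.1%. Mybpc3 stood at 66.9% ± 11.7 (SD, n = 3) of the way by value and at 85.3% ± 6.59 on the log2 scale, where Acta1 averaged 65.7%, so the order of the 2 genes turned round between the scales.

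**Figure D1:**
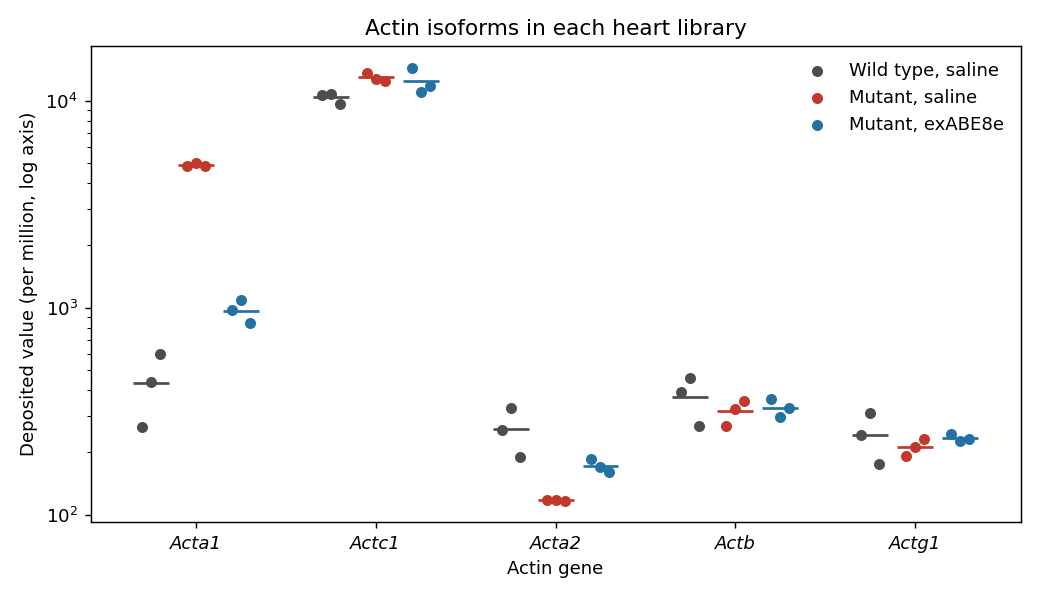
Deposited value of each actin gene in each of the 9 libraries on a log axis, by group, with the line at the group mean. Acta1 forms 3 separate levels (266 to 597, 4810 to 4989 and 841 to 1087), Acta2 is lowest in the saline mutants, and Actb and Actg1 overlap between the groups.

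Actc1 was the isoform with the highest value in every heart. It lies at chr2:114047282-114053548 on the minus strand, with 7 exons and 1473 bases in its main transcript. Its values were 10692, 10722 and 9667 in wildtype, 13680, 12664 and 12481 in saline mutant and 14449, 11065 and 11730 in treated hearts. All 6 mutant hearts, treated or not, lay above the 3 wildtype hearts, and the treated and saline mutants overlapped. Saline mutants differed from wildtype by 0.32 in log2 (SE 0.139, interval 0.0059 to 0.64; limma adjusted p 0.244), which did not pass the test. Between treated and saline mutants the difference was -0.07 (interval -0.44 to 0.30; limma adjusted p 0.944). Without the 3 libraries with Xist it was -0.21 (limma adjusted p 0.792). Treated hearts were 0.25 higher than wildtype (interval -0.06 to 0.57, limma adjusted p 0.504), and 0.16 higher without those libraries.

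Acta2 moved the other way from Acta1. It lies at chr19:34241090-34255590 on the minus strand, with 9 exons and 2035 bases in its main transcript. Its values were 257, 328 and 189 in wildtype, 118, 118 and 117 in saline mutant and 186, 170 and 161 in treated hearts. The saline mutants lay at nearly 1 value below all others, and the treated hearts lay between the groups without overlapping either. Acta2 fell by 1.09 on the log2 scale in saline mutants (SE 0.177, interval -1.49 to -0.69; limma adjusted p 0.00721), to 45.6% of the wildtype mean. Without the 3 libraries with Xist the change was -1.07, and the limma adjusted p was 0.0661, above the threshold. In treated hearts Acta2 was 0.54 higher than in saline mutants (SE 0.0982, interval 0.32 to 0.77), which did not pass (limma adjusted p 0.172).

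Actb and Actg1 overlapped between all groups. Actb, at chr5:142903115-142906754, had values of 391, 458 and 267 in wildtype, 268, 324 and 355 in saline mutant and 363, 295 and 328 in treated hearts. Actg1, at chr11:120345690-120348542, had 243, 311 and 176 in wildtype, 193, 212 and 232 in saline mutant and 245, 227 and 232 in treated hearts. Both genes lie on the minus strand and have 6 exons. Wildtype replicate 2 was the highest and wildtype replicate 3 the lowest library for both. Saline mutants differed from wildtype by -0.21 for Actb (interval -0.66 to 0.24; limma adjusted p 0.624). For Actg1 that difference was -0.16 (interval -0.59 to 0.27; limma adjusted p 0.711). Between treated and saline mutants the intervals ran from -0.24 to 0.37 for Actb and from -0.09 to 0.39 for Actg1.

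Counting the family, 2 of 5 isoforms passed the test between saline mutants and wildtype (Acta1 up, Acta2 down), where 7.7% of all genes tested did. Between treated and saline mutants 1 of 5 passed (Acta1), against 0.0147% of genes. Between treated and wildtype hearts 0 of 5 passed with limma, against 0.989%. In that comparison 2 of 5 (Acta1 and Acta2) had an unadjusted limma p under 0.05, where 12.5% of all genes did, and the same number of isoforms did in the authors' deposited table. Groups did not overlap for 3, 2 and 3 of the 5 isoforms in these comparisons, where 21.6%, 9.82% and 14.6% of genes did not. The comparisons share groups and are not independent of each other. In the authors' deposited table, Acta1 had log2 fold changes of 3.42 (SE 0.215), -2.30 (SE 0.150) and 1.14 (SE 0.228) in the same order of comparisons.

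**Figure D2:**
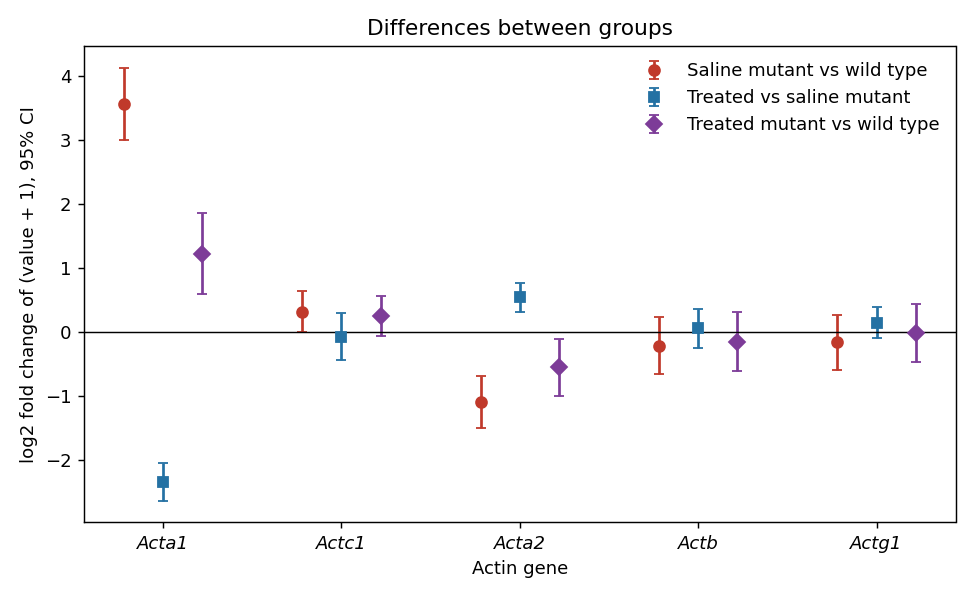
Log2 fold change of each isoform in the 3 comparisons, from limma on log2(value + 1); points are estimates and bars 95% confidence intervals. Acta1 stands at 3.56, -2.34 and 1.22, Acta2 at -1.09, 0.54 and -0.55, and the intervals of Actb and Actg1 include 0 in every comparison.

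The make-up of the actin pool shifted between groups. Each isoform's share is its value over the sum of the 5 values in that library. Acta1 took 2.24%, 3.57% and 5.48% of the pool in wildtype hearts. In the saline mutants it took 25.2%, 27.3% and 26.8%, and after treatment 5.99%, 8.46% and 6.33%. Its mean share was thus 3.76% ± 1.63, 26.4% ± 1.06 and 6.93% ± 1.34 (SD, n = 3 each). The Actc1 share was 88.8% ± 1.38 in wildtype, 70.1% ± 1.44 in saline mutants and 87.8% ± 1.52 in treated hearts. Saline mutants lay apart from both other groups for both genes, while the treated and wildtype shares overlapped for Actc1. Without the 3 libraries with Xist the Acta1 share differed by 21.7 percentage points between saline mutants and wildtype and by -18.8 between treated and saline mutants.

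The 3 other isoforms held small shares. Acta2 made up 2.19% ± 0.471 of the pool in wildtype, 0.638% ± 0.0165 in saline mutants and 1.23% ± 0.0893 in treated hearts. Actb made up 3.16% ± 0.654, 1.72% ± 0.287 and 2.33% ± 0.119 in the same order. Actg1 made up 2.07% ± 0.461, 1.15% ± 0.138 and 1.67% ± 0.142. These shares were lower in every saline mutant heart than in every other heart. For Actb and Actg1 the levels themselves overlapped, and the pool they are divided by was larger in saline mutants.

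That pool, the summed value of the 5 genes, was 11849, 12256 and 10896 in wildtype, 19069, 18307 and 18009 in saline mutant and 16214, 12844 and 13292 in treated hearts. It made up 1.17% ± 0.0699, 1.85% ± 0.0546 and 1.41% ± 0.183 of a library. The saline mutant pool was larger by 0.66 in log2 than the wildtype pool, and the treated pool was smaller by 0.39 than the saline mutant pool and larger by 0.27 than the wildtype pool. This last difference was 0.17 without treated replicate 1 and 0.18 without the 3 libraries with Xist. No library of one group overlapped with another group. The 3 isoforms outside the sarcomere summed to 873 ± 233, 646 ± 62.9 and 736 ± 52.6, with overlap between groups.

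With 3 libraries against 3, the exact two-sided permutation test cannot give a p under 0.1. Every share, ratio and pool that did not overlap had that exact p of 0.1, and 0.1125 after adjustment over 27 such tests. Shares of 1 pool are not independent of each other. Whether the values are scaled by transcript length is not stated, and levels of different genes are comparable only per length. Multiplying or dividing the values by transcript length gave differences in the Acta1 share, saline mutant minus wildtype, of 22.2 and 23.1 percentage points, against 22.7 as deposited. The division was chosen after seeing the data.

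**Figure D3:**
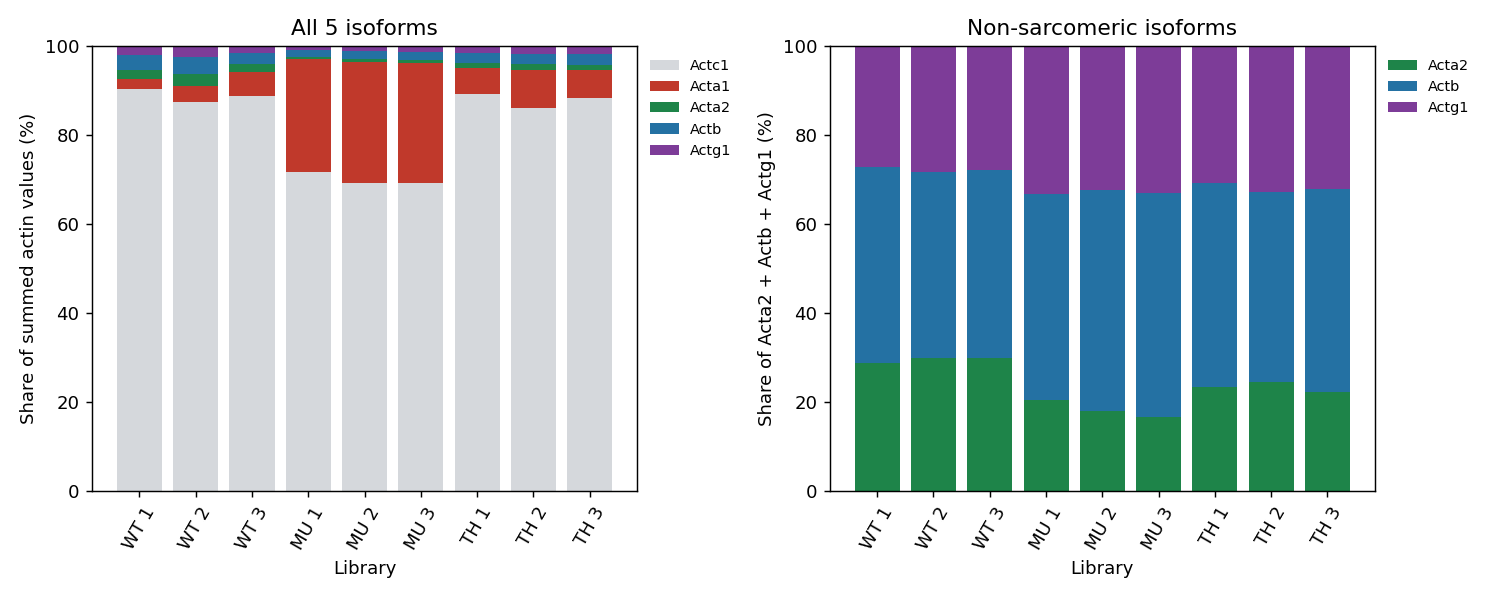
Share of the summed actin value held by each isoform in each library (WT wildtype saline, MU mutant saline, TH mutant treated; numbers are replicates), as stacked bars, with a second panel for the division of Acta2, Actb and Actg1 among themselves. In the first panel Acta1 takes 25.2% to 27.3% of the pool in saline mutants, 2.24% to 5.48% in wildtype and 5.99% to 8.46% in treated hearts.

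Ratios within a library do not depend on how the library is scaled. For each 100 units of Actc1 there were 2.49, 4.08 and 6.18 units of Acta1 in wildtype, 35.2, 39.4 and 38.7 in saline mutant and 6.72, 9.82 and 7.17 in treated hearts. The log2 ratio differed by 3.25 between saline mutants and wildtype, by -2.27 between treated and saline mutants and by 0.97 between treated and wildtype hearts. For each 100 units of Actb there were 65.7, 71.6 and 70.8 units of Acta2 in wildtype, 44.0, 36.4 and 33.0 in saline mutant and 51.2, 57.6 and 49.1 in treated hearts. The 3 groups did not overlap in either ratio. This second ratio was chosen after seeing the data. Within wildtype the Acta2 level varied by 26.9% (coefficient of variation), and Acta2, Actb and Actg1 had the same order of libraries there. Actb for each 100 units of Actg1 overlapped between the groups, at 153 ± 6.96, 148 ± 8.12 and 140 ± 9.20 (SD, n = 3 each).

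**Figure D4:**
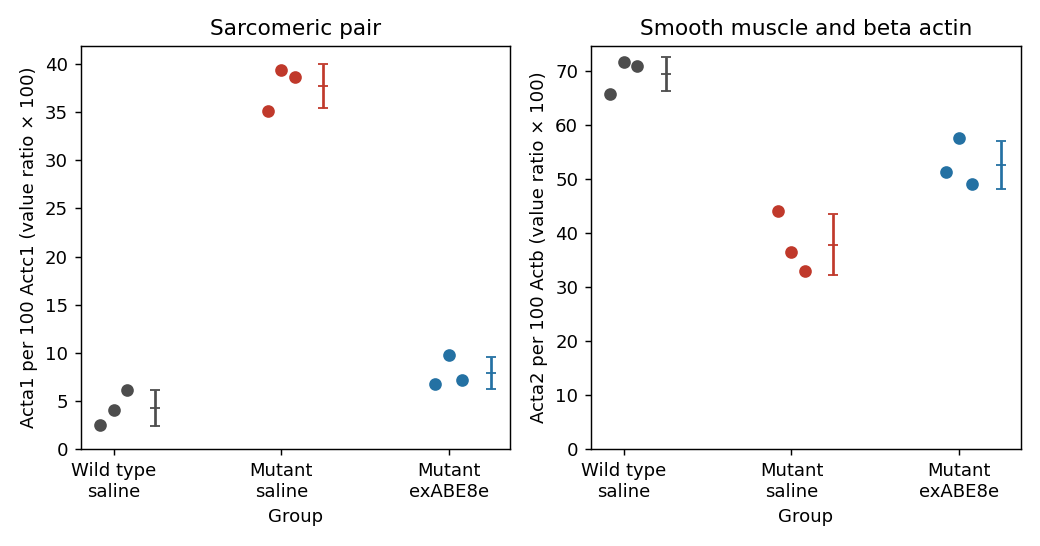
Ratios of actin isoforms within each library: Acta1 for each 100 units of Actc1 and Acta2 for each 100 units of Actb, with points for libraries and bars for the mean ± SD of 3. Acta1 to Actc1 is 35.2 to 39.4 in saline mutants and at most 9.82 elsewhere, and Acta2 to Actb is lowest in saline mutants (33.0 to 44.0).

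The isoforms are similar in sequence, which bears on how reads are divided among them. In the reference transcripts, the coding sequences of Acta1 and Actc1 were 86.3% identical and those of Actb and Actg1 88.6%. Acta1 and Actc1 shared no identical stretch of 50 bases. Acta1 shared 28 of its 1397 windows of 50 bases with Actb and 10 with Actg1, Acta2 shared 7 of 1986 with Actg1, and Actb shared 30 of 1871 with Actg1. How the authors' counting assigned such reads is not stated, so the split is uncertain there. Annotated genes on the opposite strand overlap Acta1 (Gm20388) and Actc1 (A530058N18Rik), and strand use in the counting is not stated.

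In bulk tissue, fewer cells of a type and less RNA per cell cannot be told apart, which touches Acta2 above all. Of the smooth muscle markers 15 were tested, and 1 rose in saline mutants (6.67%, against 7.7% of all genes tested). It was Des, which cardiomyocytes also express. The list's median was -0.15 in log2, against 0.07 over all genes, and 6 of the 15 were positive. Myh11, the smooth muscle myosin, was at 24, 41 and 38 in wildtype, 30, 32 and 20 in saline mutant and 21, 46 and 31 in treated hearts. Without Des and Pln, a choice made after their values were seen, the 14 remaining markers summed to 1137, 1381 and 1211, to 1011, 1033 and 1284, and to 990, 1068 and 1206. These sums overlapped between groups. Cnn1 was at 1 or 2 in every library, and Tagln was listed at 0 in 8 of the 9.

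Of 13 myofibroblast markers tested, 5 rose in saline mutants and 0 fell (38.5%, against 7.7% of all genes tested). Among them were Col1a1 (0.93, limma adjusted p 0.0194), Lox (1.73) and Thbs4 (3.33). Without the 3 libraries with Xist 2 of 13 rose, Lox and Thbs4, and Col1a1 did not pass (limma adjusted p 0.122). With limma 0 of 13 passed between treated and saline mutants. The summed marker value was 1071 to 1788 in wildtype, 1863 to 3309 in saline mutant and 1360 to 2153 in treated hearts, and the sums of treated hearts overlapped with both other groups. The sum of blood markers was 280, 313 and 104 in wildtype, 69, 78 and 85 in saline mutant and 140, 145 and 158 in treated hearts, so wildtype replicate 3 lay below every treated heart. Of 5 blood markers tested 2 fell in saline mutants, Alas2 and Hba.a2 (40%, against 7.7% of all genes tested). With limma 0 passed without the 3 libraries with Xist or between treated and saline mutants. The part of either cell type in the Acta2 values was not tested. No endothelial marker of 10 tested passed in any comparison with limma. In saline mutants 1 of the 10 had a positive log2 fold change against wildtype (median -0.16, against 0.07 over all genes). Between treated and saline mutants 7 of 10 were positive (median 0.083, against -0.025 over all genes).

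Skeletal muscle was checked because Acta1 is its main actin. Of 19 markers 9 were listed in the tables, and their summed value was 43 to 47 in wildtype, 81 to 110 in saline mutant and 73 to 104 in treated hearts. The skeletal myosin heavy chain Myh4 and troponin Tnnt3 were at 0 or 1 in every library. Casq1, a calcium store protein, was at 10, 13 and 13 in wildtype, 97, 64 and 58 in saline mutant and 68, 40 and 54 in treated hearts, and was the largest part of the sum in every mutant heart. Of 3 markers tested between saline mutants and wildtype, Casq1 rose by 2.48 (limma adjusted p 0.00026), and Myl1, a myosin light chain, fell by 0.95 (limma adjusted p 0.0117). These were 66.7% of the markers tested, against 7.7% of all genes tested. Myl1, at 31, 30 and 31, was the larger of the pair in wildtype. The part of skeletal muscle cells in the Acta1 values was not tested.

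Genes that act with actin, SRF with its cofactors, and SRF target genes were followed in 8 lists, chosen with earlier results of these data known. SRF targets include genes that do not act with actin, such as the natriuretic peptides Nppa and Nppb. Of 123 tested between saline mutants and wildtype, 18 rose and 3 fell, where 7.7% of all genes tested passed. Between treated and saline mutants 0 of 122 passed with limma, against 0.0147% of all genes, while 13 (10.7%) had an unadjusted p under 0.05, against 8.29% of all genes. Between treated and wildtype hearts 9 of 122 were higher and 0 lower, against 0.989% of all genes, in a comparison that shares the wildtype hearts with the first. SRF target genes made up 8 of the 18 that rose and 1 of the 3 that fell in saline mutants. They were 5 of the 9 that were higher in treated than in wildtype hearts. Without the 3 libraries with Xist, a choice made for these lists after seeing the data, 14 rose and 2 fell in saline mutants, 0 passed between treated and saline mutants and 4 were higher in treated than in wildtype hearts. In saline mutants Ccn1, Cct8, Pfn2, Tmod4 and Zyx no longer passed then. In treated hearts Nppa, Ccn2, Ankrd1 and Synpo2l passed then, and Neb, Flnc, Xirp2, Itga5 and Fhl1 did not. Leaving out any single wildtype library left 0 genes passing there, leaving out treated replicate 1 or 2 left 3 or 2 genes passing, and without saline mutant replicate 2 the 21 changed genes became 12 higher and 1 lower.

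Among 23 proteins that crosslink and anchor filaments, 5 rose and 1 fell when saline mutants were set against wildtype. That was 26.1% of the list, against 7.7% of all genes tested. The list's median was 0.31 in log2, against 0.07 over all genes. Xirp2, which binds actin at the intercalated disc, was at 325, 461 and 411 in wildtype, 2146, 2407 and 2411 in saline mutant and 1155, 932 and 1442 in treated hearts. It rose by 2.55 (limma adjusted p 5.98e-05), and the treated hearts lay between the other groups, with a difference from saline mutants of -1.001 (limma adjusted p 0.139). Synpo2l, a Z-disc protein, rose by 2.38 (limma adjusted p 1.54e-05) and was 1.79 higher than wildtype in treated hearts (limma adjusted p 0.0277). Flnc, a muscle filamin, rose by 1.40 (limma adjusted p 0.00883) and Xirp1 by 0.90 (limma adjusted p 0.0253). Zyx (0.61) and Ezr, which was lower by 0.47, were named after their values were seen. With 1 library left out, Xirp2 and Synpo2l passed in 6 of 6 fits and Flnc in 5. Xirp1 and Zyx passed in 2 of 6 and Ezr in 1.

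Genes for the ends and length of thin filaments changed at single members. Of 13, 2 rose and 1 fell in saline mutants (23.1%, against 7.7% of all genes tested). Neb, the giant ruler protein of skeletal thin filaments, was at 2, 5 and 4 in wildtype, 32, 24 and 28 in saline mutant and 16, 16 and 14 in treated hearts. It rose by 2.68 (limma adjusted p 0.000597) and was 1.86 higher than wildtype in treated hearts (limma adjusted p 0.0281; 0.0908 without the 3 libraries with Xist). Nrap, a nebulin-related anchoring protein, rose by 0.997 (limma adjusted p 0.0132), and Tmod4, a tropomodulin of skeletal muscle, fell by 0.70 (limma adjusted p 0.0494).

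Other actin lists held few calls in saline mutants: 12.5% for monomer binding and turnover and 5.88% for folding, against 7.7% of all genes tested. Of 16 genes for monomer binding and turnover, Cfl2, a muscle cofilin that severs filaments, rose by 0.55 (limma adjusted p 0.00914), and Pfn2, a profilin, rose by 0.46 (limma adjusted p 0.0463). Of 17 genes for folding and modification, only Cct8, a subunit of the chaperonin that folds actin, passed, with a rise of 0.51 (limma adjusted p 0.023). The folding list had a median of 0.21, and 15 of its 17 genes had a positive log2 fold change. Over all genes the median was 0.07, and -0.023 with upper-quartile factors, so signs depend on the scaling. None of 17 nucleation genes and none of 11 actin-related genes passed with limma, and Actr3 differed by 0.32 (unadjusted p 0.0373, limma adjusted p 0.215).

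Among SRF and its cofactors 1 of 10 tested passed in saline mutants, against 7.7% of all genes tested. Abra, an actin-binding activator of SRF signalling, rose in saline mutants, by 1.80 (limma adjusted p 0.00205). Its values were 27, 21 and 21 in wildtype, 122, 69 and 66 in saline mutant and 273, 282 and 53 in treated hearts, so treated replicate 3 stood below the other treated libraries. Among 19 SRF target genes, 8 rose and 1 fell in saline mutants (47.4%, against 7.7% of all genes tested). The median was 0.40, against 0.07 over all genes. The largest were Nppa (3.95) and Nppb (3.25), which encode the natriuretic peptides, Ankrd1 (2.21), a stress protein of the Z-disc, and Ccn2 (1.92), a matricellular growth factor. Fhl2, a LIM protein, fell by 1.07 and was named after its value was seen. Nppa, at 61, 42 and 45 in wildtype, 356, 858 and 1489 in saline mutant and 256, 187 and 155 in treated hearts, is also a marker of atrial myocardium. The 6 atrial markers listed summed to 134 to 163 in wildtype, 414 to 1576 in saline mutant and 237 to 328 in treated hearts. Myl7, Sln and Bmp10 were not listed. Nppa was most of the sum in each saline mutant heart (356 of 414, 858 of 916 and 1489 of 1576). In wildtype it was 61 of 163, 42 of 134 and 45 of 139. In saline mutants Nppa, Dkk3 (1.89) and Myl4 (1.19) rose, while Kcnj3 (-2.24) and Tbx5 (-0.52) fell. These were 83.3% of the 6, against 7.7% of all genes tested. Without the 3 libraries with Xist 2 of the 6 rose and 1 fell. With 1 library left out, Nppa, Dkk3 and Kcnj3 passed in 6 of 6 fits, Myl4 in 4 and Tbx5 in 0. The part of atrial tissue in the values of Nppa and Acta1 was not tested.

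In treated hearts 5 of 19 SRF targets were higher than in wildtype hearts, against 0.989% of all genes. Without the 3 libraries with Xist 3 of 19 passed here (Nppa, Ccn2 and Ankrd1), and 6 rose and 1 fell in saline mutants. With all libraries, the list's median against wildtype was 0.71 in treated hearts (15 of 19 positive) and 0.40 in saline mutants (12 of 19 positive). Between treated and saline mutants the list's median was 0.095, with 14 of 19 positive. Over all genes these medians were 0.0088, 0.07 and -0.025. Ccn2 stood at 47, 52 and 59 in wildtype, 176, 171 and 271 in saline mutant and 364, 178 and 175 in treated hearts. Its difference between treated and wildtype hearts was 2.08 (limma adjusted p 0.0277). Ankrd1 was 1.87 higher (limma adjusted p 0.0281). Nppb was at 61, 38 and 38, at 344, 477 and 490, and at 188, 115 and 78, and differed by -1.85 between treated and saline mutants (limma adjusted p 0.139).

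Genes whose log2 values followed each isoform were sought among 8786 genes by Pearson correlation over the 9 libraries, which come from 3 groups, so a high value can come from group differences. For Acta1 the highest were E230013L22Rik (0.977), Limk2 (0.963), Lars (0.954), Tnip1 (0.953) and Eif3j1 (0.952). Limk2, a kinase that inactivates cofilin, was at 30 in all 3 wildtype libraries, at 41, 43 and 39 in saline mutant and at 34, 35 and 34 in treated hearts. For Acta2 they were Smarcd1 (0.976), Tpm1 (0.952), Egln3 (0.951), Cyp4b1 (0.947) and Htra1 (0.947). Tpm1, the tropomyosin of heart thin filaments, was at 9019, 9568 and 8707, at 6753, 6588 and 6457, and at 7364, 7530 and 7561.

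For Actc1 the highest were Cldnd1 (0.982), Tubb2a (0.953), Mfge8 (0.950), Ckap4 (0.949) and Dipk2a (0.948). For Actb they were Txndc12 (0.953), Emp3 (0.941), Actg1 (0.934), Cnn2 (0.926) and Trnau1ap (0.916). For Actg1 they were Cnn2 (0.977), Actb (0.934), Rfng (0.919), Pde4b (0.911) and Tm9sf1 (0.907). The cytoskeletal pair thus named each other, and Cnn2, a calponin, stood in both lists. Acta1 and Acta2 had a correlation of -0.914, and Acta1 and Actc1 of 0.639.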

How the data were processed

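PolyA RNA of 9 hearts was sequenced. The submitters' processing notes name HISAT2, HTSeq, DESeq2 and the build mm10, without versions or roles. The deposited values per library are whole numbers that sum to nearly the same total in every library, and are treated as a score: a normalized unit rounded by the authors, with the unit, annotation and length scaling not given in the sources used here. The authors' mean signal, log2 fold changes, standard errors and p-values per gene stand beside them. The authors' deposited column named as adjusted p-value equals the unadjusted normal p-value, and the column named as p-value is that number divided by 55487.

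Each pair of groups was fitted with limma 3.58.1 (R 4.3.3) on log2(value + 1), for genes with a mean of at least 1 over the 6 libraries. Fold changes on this scale understate changes of low genes. Residual variances were held at or above the rounding variance (1/12 on the value scale), and prior degrees of freedom were taken from genes with a mean of at least 30. A gene passed at a Benjamini-Hochberg adjusted p under 0.05. The script was tested on simulated data with independent errors and no effects of sex or library. That test therefore cannot vouch for calls that such effects could move. Shares, ratios and sums were compared by exact permutation tests (scipy 1.17.1). Positions and transcripts are from GENCODE M21 (GRCm38). The isoforms and gene lists were chosen with earlier results of these data known. Named genes are the isoforms, Mybpc3, up to 4 passing genes with the smallest p-values per list and comparison (or, with none, up to 2 non-overlapping genes with the largest change), and the 5 genes most correlated with each isoform. A list for macrophages and leukocytes was also measured: 0 of its 8 markers passed with limma in any comparison (lowest to highest sum 336 to 661 over all hearts). In saline mutants 8 of 8 were positive against wildtype (median log2 0.33, against 0.07 over all genes). Between treated and saline mutants 1 of 8 was positive (median -0.38, against -0.025 over all genes).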

Additional observations from a re-analysis of the deposited data

How the results depend on the processing

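Acta1 passed the limma test in all 19 alternative fits between saline mutants and wildtype (log2 3.25 to 3.83, adjusted p 5.18e-06 to 0.00614) and between treated and saline mutants (-2.43 to -2.24, adjusted p 2.64e-05 to 0.0153). Between treated and wildtype hearts it passed in 2 of 19, with the prior taken from all genes (1.22, limma adjusted p 0.0472) and with all 9 libraries in 1 fit (1.22, adjusted p 0.0316). Acta2 passed in 18 of 19 between saline mutants and wildtype. Under these alternatives 274 isoform fold changes kept direction and side of the threshold, 8 reversed, 2 newly passed and 1 no longer passed.

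Directions reversed for isoforms that had not passed, when 1 library was left out. Actg1 went from -0.16 to 0.034 without wildtype replicate 2, between saline mutants and wildtype (lowest -0.38 over the libraries left out). Between treated and saline mutants Actc1 ranged from -0.18 to 0.0097 and Actb from -0.050 to 0.15, with -0.011 without treated replicate 1. Between treated and wildtype hearts Actb ranged from -0.37 to 0.019 and Actg1 from -0.23 to 0.18, with 0.0034 and 0.0088 without wildtype replicate 1 and treated replicate 2.

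The number of genes passing was less stable, and the cause was not tested. Between saline mutants and wildtype 1050 passed, 556 without the 3 libraries with Xist and 506 to 1029 with 1 library left out; it moved over 1.5 times without wildtype replicate 1 (609) or 3 (640) or saline mutant replicate 2 (506) or 3 (688). The split of 622 higher and 428 lower became 622 and 684 with upper-quartile factors, 686 and 595 with median-of-ratios factors and 624 and 560 without mitochondrial transcripts. Between treated and saline mutants 2 passed: 7 with a pseudocount of 5, 6 with a mean of at least 10, 10 with either other scaling, 32 with no rounding floor, 14 with the prior from all genes, 13 with all 9 libraries and 2 to 8 with 1 left out (4 and 8 without treated replicate 1 or 3, 7 without saline mutant replicate 1). Between treated and wildtype hearts 134 passed: 86 with no filter, 77 with no floor, 243 with the prior from all genes, 248 with all 9 libraries, 9 without the libraries with Xist, 29 with a Y-linked covariate and 1 to 133 with 1 left out (1, 3 and 12 without wildtype replicate 1, 2 or 3, and 24 and 22 without treated replicate 1 or 2). Its split of 117 higher and 17 lower became 39 and 38 with no floor and 116 and 46 with upper-quartile factors. Total actin between saline mutants and wildtype was 0.66, and 0.59 and 0.57 with median-of-ratios and upper-quartile factors.

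The labels do not say whether same replicate numbers mark paired samples. Correlations of deviations from the group means ran from -0.370 to 0.566 for same-numbered libraries. For differently numbered libraries they ran from -0.387 to 0.342. The highest, 0.566, was between treated replicate 1 and wildtype replicate 1, which both held Xist. Saline mutant replicate 3, which also held Xist, had 0.237 with wildtype replicate 1 and 0.0347 with treated replicate 1. With 3 libraries per group these correlations cannot decide the question. A replicate block gave 819, 30 and 35 passing genes in the 3 comparisons and changed no call of an isoform. Depth is unknown, so low values carry an unmeasured counting error.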
